A study of Mus musculus with 2 samples.

Results

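The genes that carry glucose from the cell surface to lactate, and those that store it as glycogen and release it again, were read in the heart of the newborn mouse. Members were chosen by gene symbol: 40 symbols, all found, of 55536 annotated genes. They cover glucose transporters, the enzymes of glycolysis, lactate dehydrogenase, lactate transporters and the enzymes of glycogen. One symbol, Aldoa, is carried by a second gene model (mm10 chromosome 7, 126800790 to 126809108) with 20 and 16 counts, and the main model was used.

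The data are total RNA sequencing of 2 heart libraries. Both came from female mice of the hybrid strain labelled B6CASTF1/J, 4 days old and with no treatment named, and each started from 300 ng of RNA. All samples therefore share genotype, sex, age and tissue, and no contrast between groups exists. The labels number the libraries as biological replicates 1 and 2 and describe their biosamples as hearts of separately numbered females, but give both the same donor identifier. Each library is called a heart here, and the SD is only the spread between these libraries. Gene coordinates are mm10. With 2 libraries of 1 group no p-value was computed.

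Glycolysis splits glucose into pyruvate in the cytosol, and lactate dehydrogenase exchanges pyruvate with lactate. Several steps are run by isozymes from separate genes, of which some are typical of muscle and others of most tissues. Around birth the heart is known to rely on glucose and lactate, to hold much glycogen, and then to turn to fatty acids as fuel.

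Libraries held 36175363 and 32509660 expected counts. A gene at 0 counts could still have up to 3, or 0.0829 and 0.0923 CPM (counts scaled to a common library size). Levels are given as TPM, which also divides the counts by transcript length, so that genes can be compared. Markers of cardiomyocytes, the contracting heart cells, were present for 9 of 9 genes at a sum of 24229 and 23867 TPM. Red blood cell markers differed between the libraries, at a sum of 17279 and 221 TPM. Skeletal muscle markers other than the creatine kinase Ckm, which the heart also makes, were higher in replicate 1 as well. Their 13 genes summed to 39.6 and 4.63 TPM. Of all 14 markers, Ckm included, 6 could be tested between the hearts, and 6 of 6 were lower in replicate 2. In whole tissue, fewer cells of a type and less RNA per cell cannot be told apart.

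Pyruvate kinase is shown by sequence first, because a single gene, Pkm, makes both of its forms here. Its transcripts use either of a pair of exons that exclude each other. The upstream exon gives the M1 form, known from adult muscle, and the downstream exon gives the M2 form, known from embryonic and growing tissue. Both are coding exons of 167 bases on the plus strand of mm10 chromosome 9, and they share 103 of 167 bases (61.7%) when laid side by side without gaps. Capitals mark the 64 bases that differ between them, and each exon is read 5′ to 3′ from the annotated transcript, Pkm-202 for M1 and Pkm-201 for M2.
M1 exon, chr9:59675029-59675195: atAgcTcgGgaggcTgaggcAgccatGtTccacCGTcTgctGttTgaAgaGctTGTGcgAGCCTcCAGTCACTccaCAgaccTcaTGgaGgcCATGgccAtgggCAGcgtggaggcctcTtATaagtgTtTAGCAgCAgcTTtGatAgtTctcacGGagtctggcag
M2 exon, chr9:59675568-59675734: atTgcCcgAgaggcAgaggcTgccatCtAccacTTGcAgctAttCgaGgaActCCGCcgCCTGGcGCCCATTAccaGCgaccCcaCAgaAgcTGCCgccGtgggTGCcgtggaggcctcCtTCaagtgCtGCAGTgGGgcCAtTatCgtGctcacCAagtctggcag
Transcripts with the M1 exon stood at 242 and 233 TPM in replicates 1 and 2, and those with the M2 exon at 246 and 243 TPM. Of the TPM of both forms, the M1 exon thus held 49.6% and 48.9% (49.3% ± 0.522, SD, n = 2) and the M2 exon 50.7% ± 0.522. By TPM the forms were close to level, with M2 the higher in each heart. Each form was read from 1 annotated transcript, of 2041 bases for M1 and 2432 bases for M2. By count, which does not divide by length, M2 led by more, at 16091 and 13945 against 13193 and 11101 for M1. These shares are therefore not a direct count of reads on the 2 exons. In the second quantification the M1 share was 45.5% ± 1.17, so the M2 form led by a wider margin there.

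Phosphoglycerate mutase is shown by promoter, because its 2 isozymes, Pgam2 of muscle and Pgam1 of most tissues, differed 4.47-fold in level by TPM and 2.01-fold by CPM. RefSeq windows (GRCm38.p6) were found for 38 of the 40 genes, in 56 windows. Only the 250 bases before each annotated start were searched, on both strands. Below, capitals mark the motifs found, each sequence is read 5′ to 3′ on the strand of the gene, and a match is a description of letters and not a binding site.
Pgam2, chr11:5803797-5804046, minus strand: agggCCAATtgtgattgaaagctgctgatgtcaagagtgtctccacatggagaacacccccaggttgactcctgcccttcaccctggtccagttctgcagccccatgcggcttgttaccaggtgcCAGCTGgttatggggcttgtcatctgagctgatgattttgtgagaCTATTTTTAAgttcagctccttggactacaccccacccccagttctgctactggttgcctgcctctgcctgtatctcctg
Pgam1, chr19:41911621-41911870, plus strand: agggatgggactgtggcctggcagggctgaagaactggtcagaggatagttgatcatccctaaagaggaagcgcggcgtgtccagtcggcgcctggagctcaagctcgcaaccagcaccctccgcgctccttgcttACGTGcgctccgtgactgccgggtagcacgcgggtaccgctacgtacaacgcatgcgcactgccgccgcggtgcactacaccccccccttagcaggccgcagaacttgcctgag
The Pgam2 window holds a MEF2 site starting 80 bases before the start, the E-box CAGCTG at 125 bases and CCAAT at 246 bases. MEF2 and the myogenic factors that bind such E-boxes are known regulators of muscle genes. In the Pgam1 window the only match was ACGTG, the core of the hypoxia response element, 114 bases before the start. The windows also differ in CpG pairs, of which Pgam2 holds 1 and Pgam1 holds 22. This split did not hold for all muscle genes, since Eno3 holds 3 and Pygm 4 but Hk2 holds 25, Phka1 19 and the 3 windows of Aldoa 0, 19 and 21.

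Across the 56 windows of these genes, ACGTG was found in 22 (39.3%), against 16.6% of all 32851 windows and 21.6% of windows of protein-coding genes that reached 1 TPM in each heart. CACGTG, which always holds ACGTG as well, was found in 5 (8.93%, against 6.02% of all windows and 8.28% of those of expressed genes). GGGCGG was found in 53.6%, above the 32.7% of all windows but below the 58.4% of expressed genes. CCAAT was found in 35.7% (33.8% of all and 35.3% of expressed genes) and CAGCTG in 16.1% (13.0% and 12.1%). TATAAA was found in 3.57% (12.4% of all and 6.26% of expressed genes). A MEF2 site stood in 2 windows (3.57%, against 1.69% of all and 1.20% of those of expressed genes), those of Pgam2 and 1 of Pfkfb1. Windows of these genes were richer in G and C, with a median of 60.0% against 52.4% of all windows, and ACGTG and GGGCGG are themselves rich in both. ACGTG was seen in windows of 18 genes, including Aldoa, Hk2, Ldha, Pgk1, Pfkm, Pygm, Slc2a1 and Slc16a1. Windows of the same gene can overlap, as those of Aldoa that hold ACGTG do. The G and C content of windows of expressed genes was not compared.

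Nearly all of the pathway was expressed. Of the 40 genes, 39 reached 1 TPM or more in each heart, and the exception was Slc2a3 at 1.46 and 0.870. Levels of 10 TPM or more in each heart were found for 30 genes, of 100 or more for 15 and of 500 or more for 5. Compared with the 11935 nuclear protein-coding genes that reached 1 TPM in each heart, 20 of the genes lay in the top 10%. Together they summed to 7741 and 7658 TPM, which is 0.770% ± 0.00589 of all TPM (SD, n = 2). That share depends on what is counted in the total, and was 1.31% in the second quantification and 1.69% of TPM over nuclear protein-coding genes. The spread between the hearts was small, with a median SD of 4.10% of the mean over the 40 genes and 5.88% over expressed protein-coding genes. These medians were not matched for level, and 20 of the 40 genes lay in the top 10%.

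**Figure D1:**
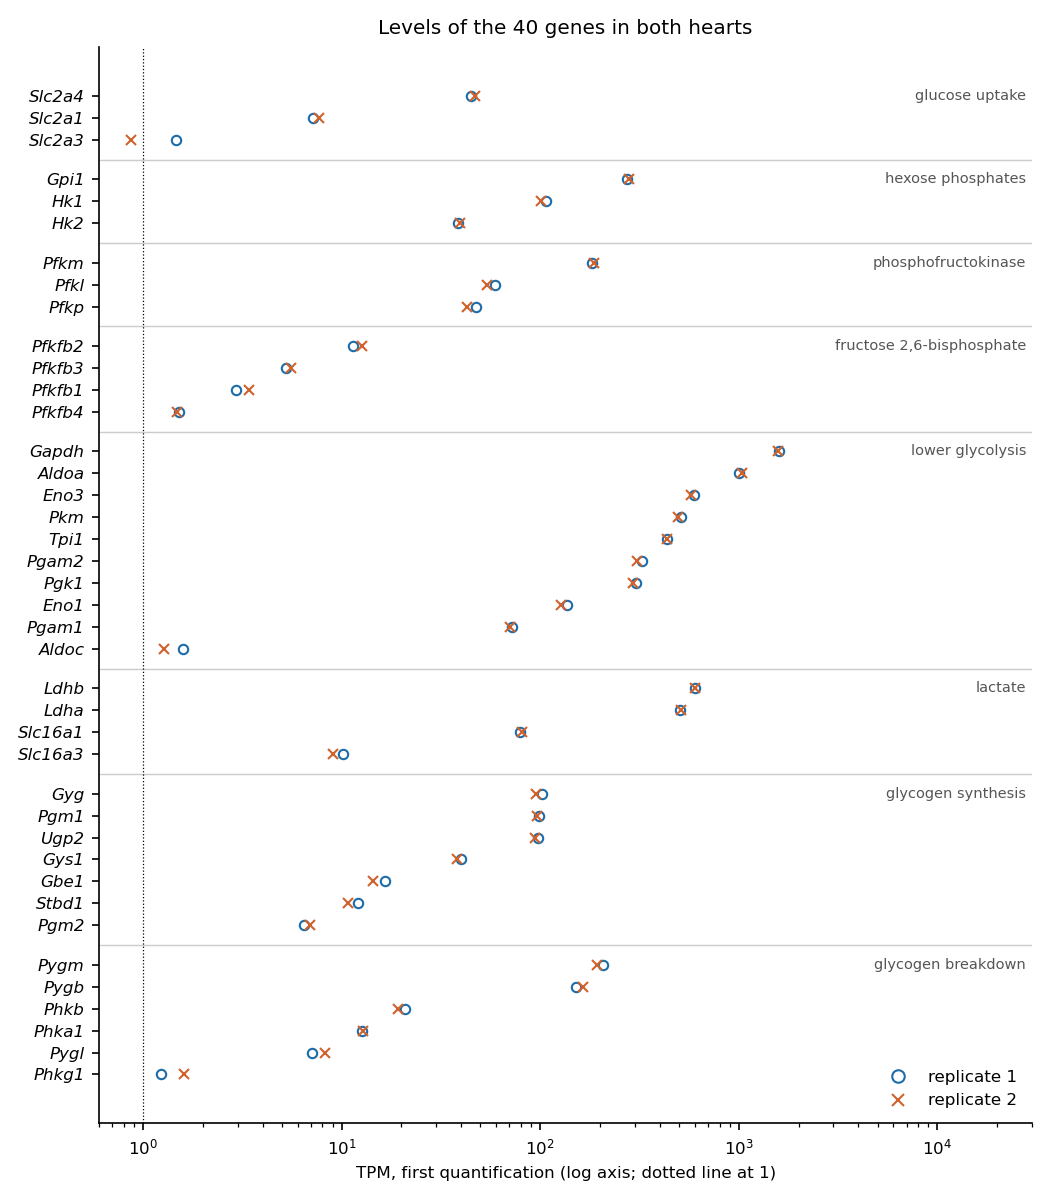
Level of each of the 40 genes in TPM on a log axis, by role, with a circle for replicate 1 and a cross for replicate 2. Gapdh is the highest at 1601 and 1584 TPM, Slc2a3 lies lowest at 0.870 TPM in replicate 2, and the symbols of most genes lie on top of each other.

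Glucose enters heart cells through transporters of the SLC2 family. Slc2a4, the transporter that insulin brings to the cell surface (chromosome 11, 69942539 to 69948188), stood at 44.8 and 47.0 TPM. Slc2a1, which is known to dominate in fetal heart and brings in glucose without insulin, stood at 7.19 and 7.65 TPM. Slc2a3, the transporter typical of neurons, stood at 1.46 and 0.870 TPM. The order Slc2a4, Slc2a1, Slc2a3 held in both hearts with no overlap, and Slc2a4 made up 84.2% ± 0.578 of the sum of these genes (SD, n = 2). Relatives outside the list were lower than Slc2a4, with Slc2a8 at 5.97 and 7.02 TPM and Slc2a12 at 4.81 and 3.01 TPM.

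Hexokinases trap glucose in the cell as glucose phosphate. Hk1, the form of most tissues, which binds mitochondria, stood at 107 and 101 TPM, and Hk2, the insulin-regulated form of muscle, at 38.5 and 39.4 TPM. Hk1 was thus the higher in each heart, and the pair did not overlap. Hkdc1, a relative outside the list, had 0 counts in both. Gpi1, which turns glucose phosphate into fructose phosphate (chromosome 7, 34201330 to 34230336), stood at 275 and 279 TPM.

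Phosphofructokinase commits sugar to glycolysis, as a tetramer of subunits from different genes. The muscle subunit Pfkm (chromosome 15, 98092589 to 98132451) stood at 183 and 187 TPM, the liver subunit Pfkl at 58.9 and 54.0 TPM and the platelet subunit Pfkp at 47.5 and 42.8 TPM. Pfkm led in both hearts and made up 64.6% ± 1.82 of the sum (SD, n = 2). Pfkl lay above Pfkp in each heart by 1.24-fold and 1.26-fold. These levels did not overlap.

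PFKFB enzymes make and remove the sugar bisphosphate that activates phosphofructokinase. All 4 were low. Pfkfb2, the heart form that insulin and adrenaline regulate, stood at 11.4 and 12.7 TPM. It was followed by the inducible Pfkfb3 at 5.25 and 5.56 TPM, the liver and muscle gene Pfkfb1 at 2.95 and 3.40 TPM and Pfkfb4, known from testis, at 1.52 and 1.48 TPM. By TPM the order was the same in both hearts with no overlap, but the place of Pfkfb1 depends on the scale, since Pfkfb1 was 2.11-fold above Pfkfb4 by TPM and overlapped it by CPM, at a mean ratio of 0.985. By TPM Pfkfb2 held 54.4% ± 0.675 of the sum (SD, n = 2).

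Aldoa, the aldolase of muscle (chromosome 7, 126795234 to 126800751), stood at 1002 and 1034 TPM, while Aldoc, the form of brain, stood at 1.59 and 1.28 TPM. Their ratio of 713-fold, the widest within a family here, rests on 74 and 56 counts of Aldoc. Tpi1, which interconverts the triose phosphates, stood at 435 and 434 TPM. Gapdh, which oxidises them with NAD (chromosome 6, 125161715 to 125166467), was the highest of all 40 genes at 1601 and 1584 TPM and ranked 17 among expressed protein-coding genes. Pgk1, the first enzyme to make ATP in the path (chromosome X, 106187100 to 106203699), stood at 305 and 292 TPM.

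Next in the path come mutase, enolase and pyruvate kinase. Pgam2 (chromosome 11, 5801640 to 5803733) stood at 327 and 308 TPM and Pgam1 at 71.9 and 70.3 TPM. Eno3, the enolase of muscle (chromosome 11, 70657202 to 70662513), stood at 593 and 574 TPM, and Eno1, the enolase of most tissues, at 136 and 127 TPM. In each pair the muscle gene led in both hearts without overlap and held 81.7% ± 0.401 of the sum of the pair for Pgam2 and 81.6% ± 0.388 for Eno3 by TPM (SD, n = 2). By CPM these shares were 66.7% for Pgam2 and 80.3% for Eno3. Skeletal muscle makes both Pgam2 and Eno3, and its markers were lower in replicate 2. By TPM Pgam2 was 4.55-fold above Pgam1 in replicate 1 and 4.38-fold in replicate 2. Eno3 was 4.36-fold above Eno1 in replicate 1 and 4.53-fold in replicate 2. The part of skeletal muscle in these levels was not tested. Eno2, the enolase of neurons, was lower at 4.44 and 4.25 TPM. Pkm as a whole stood at 510 and 496 TPM, and the liver gene Pklr had 1 and 0 counts.

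Summed over isozymes, the enzyme step with the least messenger RNA was hexokinase, at 146 and 141 TPM. Phosphoglucose isomerase (275 and 279 TPM) and phosphofructokinase (290 and 283 TPM) came next, and phosphoglycerate kinase lay close to them at 305 and 292 TPM. The 3 highest steps were GAPDH, lactate dehydrogenase at 1108 and 1111 TPM and aldolase at 1004 and 1035 TPM. Of the GAPDH level, 1128 and 1121 TPM lay on Gapdh-208, a processed transcript with no coding sequence annotated, and by CPM this step ranked 4. Transport at both ends was lower than every enzyme step, at 53.5 and 55.5 TPM for the glucose transporters and 89.5 ± 0.693 TPM (SD, n = 2) for the lactate transporters. The ranks of all 13 steps were the same in the second quantification. By CPM, which does not divide by length, the lowest enzyme step was phosphoglycerate mutase at 270 CPM and the highest was aldolase at 1082 CPM, while lactate transport at 278 CPM lay just above the mutase step. These are levels of messenger RNA and not rates of the enzymes.

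**Figure D2:**
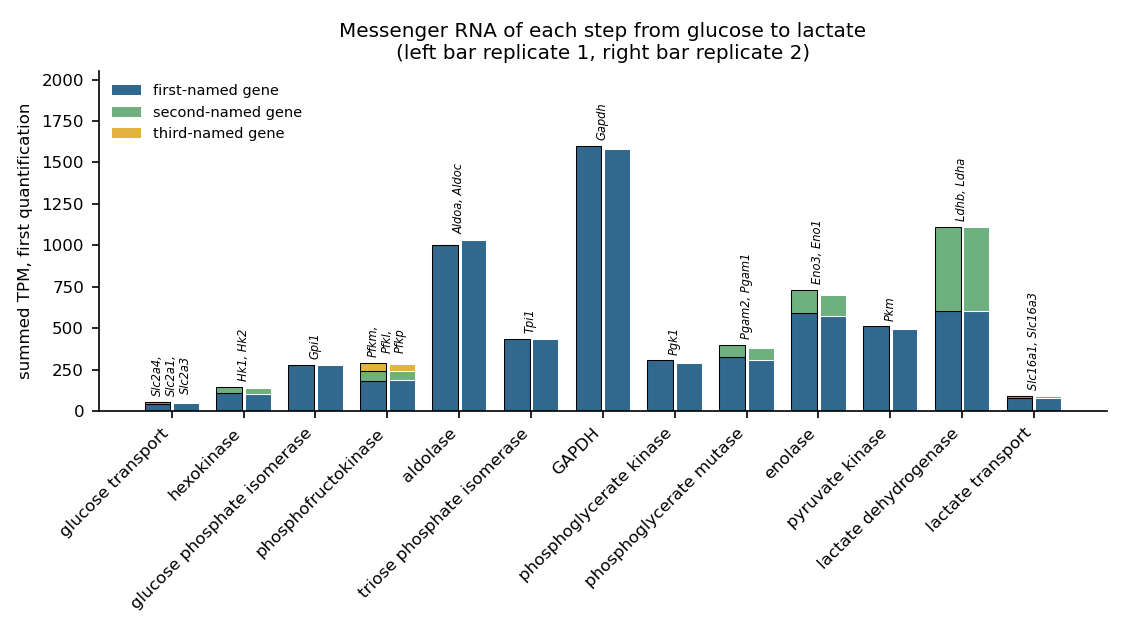
Summed TPM for each step from glucose transport to lactate transport, as stacked bars of the named genes in replicate 1 (left, dark edge) and replicate 2 (right). Glucose transport has the lowest bars, 53.5 and 55.5 TPM, and GAPDH the highest, 1601 and 1584 TPM, with no steady rise or fall along the path, and in the mutase and enolase steps the muscle gene makes up most of the bar.

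Lactate dehydrogenase is built from the subunits of Ldha, typical of skeletal muscle and favouring lactate formation, and Ldhb, typical of heart and favouring its use. Ldhb (chromosome 6, 142490249 to 142507957) stood at 605 and 601 TPM and Ldha (chromosome 7, 46841475 to 46855627) at 504 and 511 TPM. Ldhb was the higher in each heart, by 1.20-fold and 1.18-fold, and the levels did not overlap. Of its TPM, 148 and 103 lay on Ldhb-202, a transcript of 437 bases with 1403 and 857 counts. The leading transcripts alone had the other order in each heart, with Ldhb-201 at 454 and 490 TPM and Ldha-202 at 492 and 500 TPM. The order depends on the scale: the log2 ratio Ldhb/Ldha was 0.25 ± 0.02 by TPM (SD, n = 2), was larger in the second quantification, where Ldhb held 66.8% ± 0.207 of the sum, and was -0.28 by CPM. The testis gene Ldhc had 0 counts in both hearts.

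Lactate crosses the membrane through monocarboxylate transporters. Slc16a1 (chromosome 3, 104638668 to 104658462), which serves uptake in oxidative tissues, stood at 78.9 and 81.0 TPM, and Slc16a3, known from glycolytic muscle as an exporter, at 10.1 and 9.02 TPM. Slc16a1 was above Slc16a3 by 8.37-fold by TPM and 19.7-fold by CPM, with no overlap. Slc16a7, a transporter of high affinity outside the list, stood at 10.8 and 13.1 TPM, above Slc16a3 in each heart. Bsg, the chaperone that carries Slc16a1 to the membrane, stood at 351 and 368 TPM, the highest of the 72 other pathway genes read beside the members.

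Glycogen is built from glucose phosphate in a few steps. Pgm1, the mutase that opens the branch, stood at 98.7 and 96.2 TPM and Pgm2, of the same family, at 6.42 and 6.91 TPM. Ugp2, which makes UDP-glucose, stood at 97.8 and 94.6 TPM, and Gyg, the protein primer on which a particle starts, at 102 and 94.9 TPM. Glycogen synthase Gys1 (chromosome 7, 45434844 to 45456619) was lower at 39.1 ± 1.29 TPM (SD, n = 2), and the branching enzyme Gbe1 lower still at 16.5 and 14.4 TPM. Stbd1, which tethers glycogen to membranes, stood at 12.1 and 10.7 TPM. Pgm1, Ugp2 and Gyg overlapped one another, while Gys1, Gbe1 and Stbd1 followed in that order in each heart. The liver synthase Gys2 had 0 counts in both.

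Phosphorylases release glucose phosphate from glycogen. Pygm, the muscle form (chromosome 19, 6384399 to 6398459), stood at 207 and 194 TPM, Pygb, the brain form, which is also known from fetal tissue and heart, at 152 and 164 TPM, and Pygl, the liver form, at 7.05 and 8.23 TPM. Pygm lay above Pygb by 1.36-fold in replicate 1 and 1.18-fold in replicate 2, so this lead differed between the hearts. As with lactate dehydrogenase the order depends on the scale, with a log2 ratio Pygm/Pygb of 0.34 ± 0.14 by TPM (SD, n = 2) and -0.23 by CPM.

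Phosphorylase kinase switches phosphorylase on in response to calcium and adrenaline. Its regulatory subunit Phka1, the muscle form, stood at 12.7 and 12.8 TPM, and the shared subunit Phkb at 20.9 and 19.1 TPM. The catalytic subunit of muscle, Phkg1, was the lowest of the complex at 1.23 and 1.60 TPM, and rests on 64 and 40 counts. Its TPM was higher in replicate 2 and its count lower. Its effective length, the length over its transcripts that the authors' table gives for the gene, was 1855 nt in replicate 1 and 1019 nt in replicate 2. Phkg1-201, of 2374 bases, held 70.7% and 25.6% of its TPM. Phkg1-202, of 502 bases, held 9.76% and 45.6% on 1 and 7 counts. Relatives typical of liver stood beside or above these genes, with Phka2 at 13.8 and 12.4 TPM and the catalytic Phkg2 at 8.59 and 11.2 TPM, above Phkg1 in each heart.

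Within the 11 isozyme families of the list, the same gene led in both hearts in 11, and all 22 pairs of genes within a family had TPM levels that did not overlap. The leader was also the same in both hearts in 11 families in the second quantification. By CPM it was Ldha rather than Ldhb and Pygb rather than Pygm, 9 families kept the leader found by TPM, and Pfkfb1 and Pfkfb4 overlapped. With 2 values a gene, no overlap describes these libraries and is not a test. The spread between the hearts was small, and the share of such pairs over all expressed genes was not computed.

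Several genes share near-identical sequence with copies elsewhere in the genome. A stretch of at least 250 bases at 95% identity or more in transcripts of another gene was found for 10 of the 40 genes. For Pfkfb2 that gene was Gm29427, which overlaps the Pfkfb2 locus on the same strand and is not a copy elsewhere. For Gapdh such a stretch was found in 77 genes, 75 of them pseudogenes. The Gapdh copies held 1926 and 1653 counts in the first quantification and 17318 and 15695 in the second, most of the latter on the pseudogene Gm7336 (16035 and 13990 counts, against 419 and 374 in the first). Gapdh itself had 27749 and 23973 counts in the first and 172% of that in the second. Its level should therefore be read as uncertain, at a mean of 1592 TPM in the first quantification and 4391 TPM in the second. By TPM it was the highest of the 40 genes in both. By CPM in the first it stood at 767 and 737, below Aldoa at 1084 and 1077 and Pkm at 827 and 788. Its TPM in the first quantification rests on an effective length of 617 nt in each heart.

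Eno1 shares its sequence with Eno1b, a gene on chromosome 18 at 99.5% identity, and with pseudogenes. Eno1b held 2906 and 2521 counts beside 5614 and 4494 counts of Eno1, and copies held 42.5% of the summed counts of Eno1 and its copies in the first quantification and 32.4% in the second. How many of these reads belong to Eno1 was not tested. Eno3 was higher than the TPM of Eno1 and Eno1b added together (136 and 62.8 TPM in replicate 1, 127 and 62.3 TPM in replicate 2). Pgk1 shares its sequence with Gm5537 (1027 and 1030 counts) and Pgk1-rs7 (1 and 101 counts), both of which had 0 counts in the second quantification. Copies of Pgam1 held 94 and 117 counts, beside 3324 and 2852 of Pgam1. Copies of Gpi1, Ldha, Ldhb, Pkm and Tpi1, and the gene Gm29427 that overlaps Pfkfb2, held at most 4.10% of the summed counts in either quantification.

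The quantifications otherwise gave similar counts. Those of 35 of the 40 genes in the second lay within 15% of the first. TPM was higher in the second for most genes, by a median of 1.35-fold over the 40 genes and 1.30-fold over expressed protein-coding genes. Ldhb stood apart beside Gapdh, with 102% of the count and 2.10-fold the TPM, as did Phkg1, with 187% of the count and 2.17-fold the TPM.

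**Figure D3:**
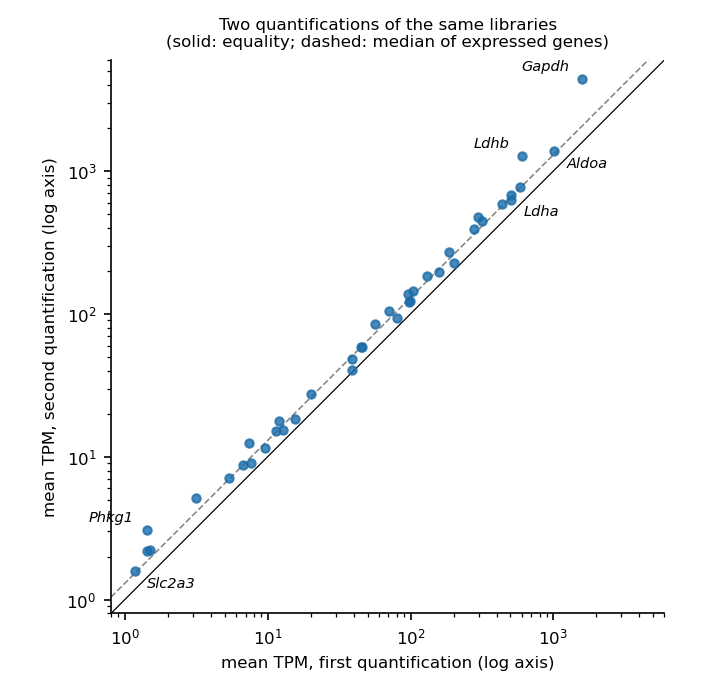
Mean TPM over both hearts of each of the 40 genes in the first (x) and second (y) quantification, on log axes, with a solid line at equality and a dashed line at the median ratio of expressed genes, 1.30. Most points follow the dashed line, and Gapdh (1592 and 4391 TPM), Ldhb (603 and 1268 TPM) and Phkg1 lie above it.

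Transcript shares were less stable between quantifications than gene levels. Of the 38 genes with more than 1 annotated transcript, 35 had the same leading transcript in both hearts in the first quantification and 32 in the second, but 23 had the same leader in both hearts and both quantifications. For Aldoa, Aldoa-201 held 91.4% ± 2.38 of TPM in the first (SD, n = 2) and 44.0% ± 1.70 in the second, where Aldoa-202 took 43.0% ± 4.21. For Ldha, Ldha-202 held 97.6% and 98.0% in the first, and Ldha-201 held 61.4% and 57.2% in the second. For Gyg, Gyg-203 held 96.2% ± 1.76 in the first, and Gyg-201 held 73.6% ± 6.89 in the second. Gapdh was the most divided. The first quantification put 70.5% and 70.8% on Gapdh-208, a processed transcript with no coding sequence annotated, and the second put 0 on it and shared the gene among Gapdh-203, Gapdh-207 and Gapdh-209.

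Other genes had a single stable transcript, with Pgam1-201 at 97.6% and 98.1%, Gys1-201 at 97.1% and 92.1%, Tpi1-205 at 95.5% and 94.2% and Slc2a4-201 at 87.6% and 88.8% in the first quantification, and each of these led in the second as well. Hk1 was spread over Hk1-202 (57.7% and 57.9%), Hk1-201 (23.5% and 25.2%) and Hk1-205 (14.2% and 12.8%), and Hk1-205 led in the second. Pfkm had Pfkm-201 at 51.1% and 48.2% and Pfkm-205 at 32.6% and 38.8%. For Pygm, a retained intron transcript, Pygm-203, held 16.4% and 15.7% beside Pygm-201 at 81.8% and 83.1%, and for Phka1 such a transcript, Phka1-207, held 30.4% and 31.7%.

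**Figure D4:**
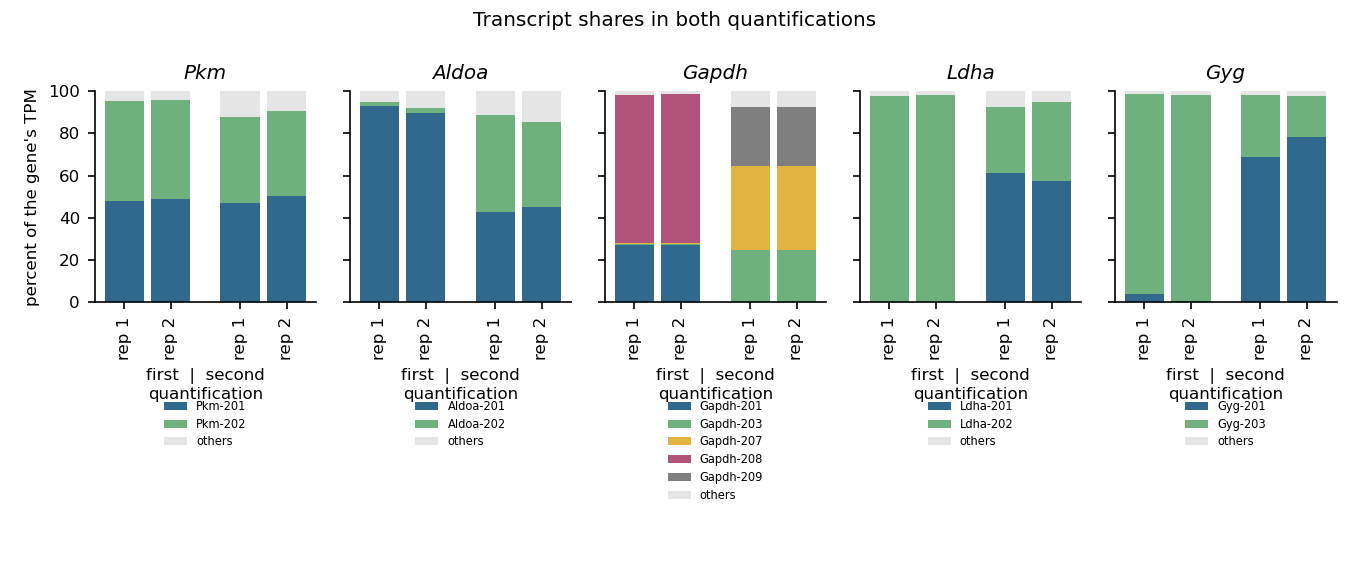
Percent of the TPM of Pkm, Aldoa, Gapdh, Ldha and Gyg held by each transcript that reached 10% in any library or quantification, with the other transcripts in light grey. The left pair of bars is the first quantification and the right pair the second. Pkm-201 and Pkm-202 are the main parts of Pkm in all 4 bars. In the right pair they stand apart, at 47.2% and 40.7% in replicate 1 and 50.1% and 40.4% in replicate 2. The leading transcript of Gapdh, Ldha and Gyg changes from the left pair to the right pair.

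Between the hearts the pathway was close to level. Counts were scaled for depth and the log2 ratio of replicate 2 to replicate 1 was taken, with an interval that covers counting error only. At a ratio of at least 2-fold, 0 of the 40 genes were called, beside 0.860% of the 13598 genes tested. At a difference of at least 25% of the lower value, 1 of the 40 was called, beside 5.92% of the genes tested. That gene was Slc2a3, with 128 and 88 counts and a log2 ratio of -0.43 (exact 95% interval -0.84 to -0.03). The call was lost in the second quantification (log2 ratio -0.34) and with scaling by library totals (-0.38) or spike-ins (-0.30), with the direction kept. Macrophage markers, whose sum was 40.9 and 57.7 TPM, were higher in replicate 2 and neuron and Schwann cell markers lower, at 31.8 and 10.1 TPM. Their part in the level of Slc2a3 was not tested. Phkg1 had the lowest ratio, -0.56, with an interval from -1.18 to 0.02.

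The small ratios leaned to one side. The median log2 ratio of the 40 genes was -0.10, and 34 of 40 lay below 0. Over all genes tested the median was -0.003 with 51.1% below 0, and over genes with a mean TPM of at least 10 it was -0.010 with 54.5% below 0. Scaling by the spike-ins shifts every gene by the same amount, and it moved the median of all genes to 0.13 and that of the 40 genes to 0.03. Among the abundant genes with narrow intervals, Gys1 had a log2 ratio of -0.22, Eno1 of -0.21, Gyg of -0.20, Pgam2 of -0.17 and Pygm of -0.16. Pygb at 0.01, Ldhb at -0.01, Pfkm at -0.01 and Slc2a4 at -0.01 were level, and Hk2 was the highest at 0.07. Over the same libraries 5 of 9 cardiomyocyte markers lay below 0, with a median of -0.09, and fibroblast markers had a median of 0.16 with 0 of 7 below 0. Skeletal muscle markers had a median of -3.27 with 6 of 6 below 0, erythroid markers of -6.31 with 6 of 6, adipocyte markers of -1.84 with 2 of 3 and neuron and Schwann cell markers of -0.90 with 3 of 4. The part of such cells in these small ratios was not tested.

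**Figure D5:**
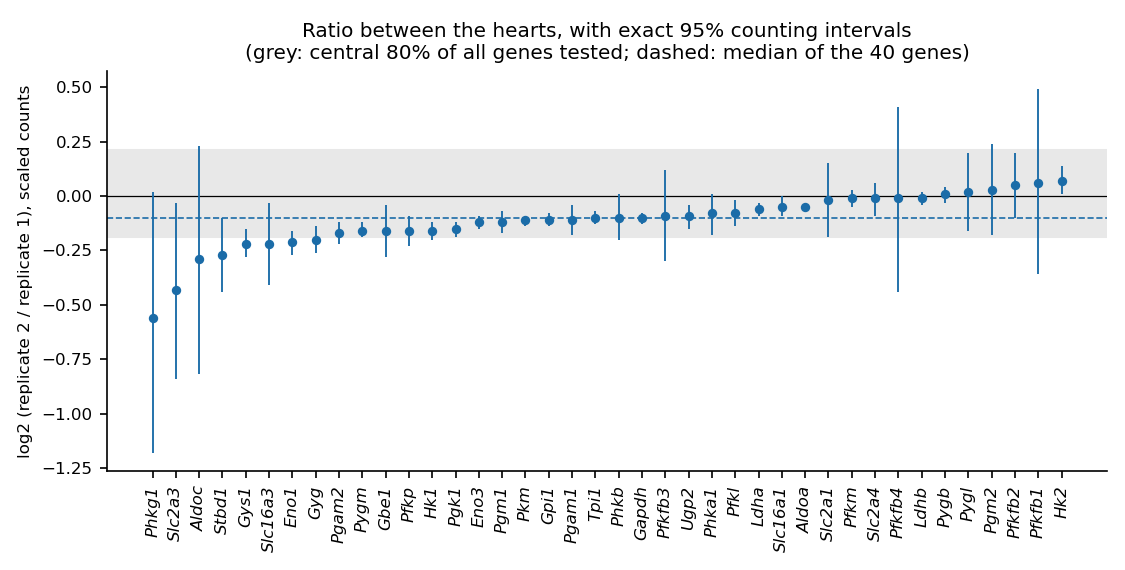
Log2 ratio of replicate 2 to replicate 1 of scaled counts for the 40 genes in order, with exact 95% counting intervals, a grey band for the central 80% of all genes tested and a dashed line at the median of the 40 genes, -0.10. Most points lie inside the band and just below 0, and the wide intervals belong to genes of low count such as Phkg1, Aldoc, Pfkfb4 and Pfkfb1.

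Of 72 other genes of the pathway, 53 reached 1 TPM in each heart. The median log2 ratio between the hearts of the 53 was -0.03. By the 25% rule 5.92% of all genes tested were called, 3.15% lower in replicate 2 and 2.77% higher. Of the 53, 3 were called lower and 0 higher, a share close to that 5.92%. The largest was Bpgm, the mutase of red blood cells that makes the regulator of haemoglobin, at 1616 and 556 counts, or 39.0 and 14.6 TPM, which was the only one called at 2-fold. It moved with the erythroid markers, of which 6 of 6 tested were called lower in replicate 2, and the part of red blood cells in it was not tested. The others were the neuronal enolase Eno2 (232 and 159 counts) and Gpd1, the glycerol phosphate dehydrogenase (842 and 622 counts). By TPM, given above, Eno2 was nearly level between the hearts. Eno2 is also among the neuron and Schwann cell markers read here. Adipocyte markers, with a sum of 12.7 and 7.98 TPM, were also lower in replicate 2.

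By level, the 10 highest of these other genes after Bsg included the pyruvate carrier subunits Mpc2 (137 and 141 TPM) and Mpc1 (111 and 104 TPM), which bring pyruvate into mitochondria. Txnip, which curbs glucose uptake, stood at 127 and 125 TPM. Branch enzymes included the aldose reductase Akr1b3 at 62.9 and 65.7 TPM and Taldo1 of the pentose phosphate path at 59.5 and 56.3 TPM. Pgm5, a relative of Pgm1 found at muscle cell junctions, stood at 48.6 and 48.2 TPM. Of the glycogen genes, 18 of 19 were expressed, among them the phosphatase targeting subunit Ppp1r3c at 35.5 and 33.2 TPM and the kinase Gsk3b at 33.0 and 33.2 TPM. The muscle fructose bisphosphatase Fbp2 stood at 8.91 and 10.9 TPM, and the liver genes G6pc and Fbp1 had at most 2 counts in either heart.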

How the data were processed

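The authors' deposited tables hold, for each library, a first quantification per gene and per transcript, with estimated counts, TPM, posterior means and the percent of a gene's abundance held by each transcript (this percent column, deposited by the authors, was recomputed here from TPM), and a second quantification per transcript with estimated counts and TPM, summed per gene here. Genome and annotation are mm10 and GENCODE M21, per the labels and file headers. The programs behind them are not named in the labels or headers. How alleles of the CAST parent affected the counts was not tested.

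All 40 members, 72 other pathway genes and the marker lists were chosen with earlier results of these data known. Named are all members, the other pathway genes with the highest TPM or of the same families, and transcripts with at least 10% of a gene's TPM. Genes named as called or as copies were chosen after their values were seen.

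Depth was 36175363 and 32509660 expected counts. Levels are TPM with the SD of 2 libraries. For the ratio between hearts, counts were rounded and TMM factors of edgeR 4.0.16 (R 4.3.3) were applied, with a prior count of 0.5. Tested were genes with at least 1 TPM in the mean and 20 counts in sum. A gene was called at 2-fold, or at a difference of 25% of the lower value, when its exact 95% Clopper-Pearson interval excluded equality. This compares 2 libraries without a replicate check, and intervals and the limit at 0 counts cover counting error only. Near-identical copies were found with blastn on the annotated transcripts. Promoters are from RefSeq. Alternatives covered the second quantification, CPM, posterior means, other scalings (DESeq2 1.42.0 size factors, spike-ins, library totals), other filters and each library alone. Single values of a few other pathway genes are not reported here.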

Additional observations from a re-analysis of the deposited data

How the results depend on the processing

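The summed share of the 40 genes, 0.770% of TPM, was 1.31% in the second quantification, 0.891% by CPM, 0.753% by posterior mean TPM and 1.69% of TPM over nuclear protein-coding genes, and it ranged from 0.766% to 0.774% when either replicate was left out. The single gene called by the 25% rule between the hearts became 0 with spike-in totals, 0 with library totals, 0 in the second quantification and 0 at a mean TPM of at least 5, a filter that removes this gene, Slc2a3. The median log2 ratio of the 40 genes, -0.10, was 0.03 with spike-in totals and lay between -0.11 and -0.06 under the other settings. By CPM the log2 ratio Ldhb/Ldha became -0.28 and Pygm/Pygb -0.23. CPM does not divide by length, and the cause of the other changes was not tested. The count of genes at a TPM of at least 1 lay between 39 and 40, was 40 at a minimum of 0.5 and 35 at a minimum of 5. The same transcript led in both hearts for 35 genes, 32 in the second quantification and 36 by posterior mean TPM. This count needs both hearts, so leaving out a replicate gives no value. No paired analysis was possible because all samples belong to 1 group. Depth limits Phkg1 (64 and 40 counts), Aldoc (74 and 56), Pfkfb1 and Pfkfb4 most.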
